A study of Mus musculus with 1 sample.

Results

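Cullin-RING ligases are the largest class of ubiquitin ligases, and the array of parental RAW264.7 cells, a mouse macrophage-like line, read 128 genes of this machinery of 19321 genes named on it. The members were chosen by gene symbol alone. They are the cullins, the RING protein Rbx1, the Skp genes, the F-box proteins (Fbxw, Fbxl and Fbxo) and the Kelch proteins Keap1 and Klhl. The others are the anaphase-promoting complex (Anapc) and the suppressors of cytokine signalling (Socs). The members are read by 145 probes, 111 of the genes by 1 probe and 17 by 2. The study set parental cells, which take up added peroxiredoxin, against lines mutagenised with ENU and sorted for loss of that uptake. The data here are 1 one-colour array (Cy5) of the parental genotype, grown in serum-containing medium with no treatment, so no line was compared with another, mutant arrays were not analysed here, and no p-value is given. All values are those of 1 culture of 1 cell line.

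In such a ligase the cullin is a rigid scaffold: its one end holds a RING protein, which brings the charged conjugating enzyme, and its other end holds an adaptor with an exchangeable substrate receptor. Cul1 works through Skp1 with F-box proteins, Cul3 with BTB-Kelch proteins such as Keap1, Cul2 and Cul5 through elongins with VHL-box and SOCS-box proteins, and Cul4 proteins through Ddb1. The anaphase-promoting complex is a larger relative with its own cullin-like and RING-like subunits, and it drives cells out of mitosis. In macrophages these ligases are known for the turnover of NF-kB inhibitors, of the oxidative stress regulator NRF2 and of cytokine receptors and their kinases.

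Signal is the median pixel brightness of a spot in arbitrary units, and a gene takes its highest probe. It was read against a pair of thresholds. The blank threshold, 22.98, is the mean plus 2 SD of the blank spots, and the receptor threshold, 55.8, was set at the 95th percentile of 1224 probes for olfactory, vomeronasal and taste receptors. Signal depends on the probe as well as on the transcript, so single members were not ranked against each other, and fewer transcripts per cell cannot be told apart from a probe that responds poorly. Cell type markers were read too, from lists chosen with earlier results of these data known, so their counts are a description. They cannot tell this line from other macrophages. Of 10 macrophage genes 10 lay over both thresholds, among them Spi1 at 858 and Csf1r at 642. Of 18 markers of other cell types 14 were not over the blank threshold. Over the receptor threshold were 2 of them, Ddx4 at 190 and Myod1 at 61.0.

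Most members gave signal over the blanks. Over the blank threshold lay 107 of 128, or 83.6%, where 72.8% of all genes did, and over the receptor threshold lay 69, or 53.9%, where 42.8% of all genes did. The median over the members was 67.9, against 40.1 over all genes, in a range from 18.2 to 2603. The parts of the machinery were unlike in this. Of 20 core subunits, which are the cullins, Rbx1, Skp1 and the Anapc genes, 20 passed the blank threshold and 17, or 85.0%, the receptor threshold, with a median of 271. Of 107 exchangeable substrate receptors (Fbxw, Fbxl, Fbxo, Keap1, Klhl and Socs) 86 passed the blank threshold, or 80.4%, and 51 the receptor threshold, or 47.7%. Their median was 52.6. Skp2, an F-box protein grouped with Skp1 by its symbol, is in neither count. The difference between core subunits and receptors was not tested, since 1 array has no spread between samples.

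**Figure D1:**
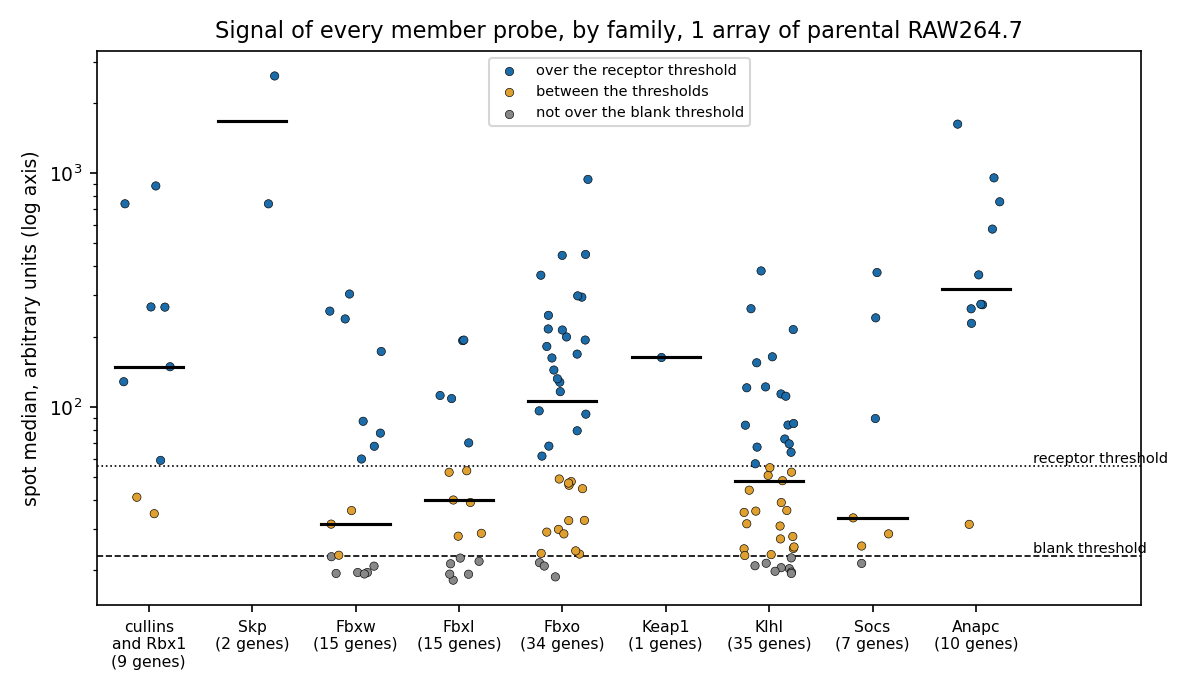
Spot median of each of the 145 member probes (vertical, arbitrary units, log axis) in 9 families (horizontal); colours give the side of the thresholds, the black bars are family medians over genes at their highest probe, and the dashed and dotted lines are the blank threshold (22.98) and the receptor threshold (55.8). The medians of the Anapc genes (321) and of the cullins with Rbx1 (149) lie over the receptor threshold, and those of Fbxw (31.5), Fbxl (40.0), Klhl (48.4) and Socs (33.5) lie under it.

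Promoters of the members were set beside these calls, because the rule did not use them. RefSeq promoter windows (build GRCm38.p6, 250 bases before to 50 after the start) were found for 102 of the 128 members, and the first listed window of each gene was used. Windows of the 58 members over the receptor threshold held a median of 23 CpG dinucleotides, those of the 27 between the thresholds 17, and those of the 17 not over the blank threshold 8. All named genes with a window showed the same order, with medians of 21, 11 and 6, so the gradient is not particular to the members. Of the members over the receptor threshold 3, or 5.17%, held 5 CpG or fewer, against 7 of the 17 not over the blank threshold, or 41.2%, and among all named genes these shares were 9.56% and 49.8%. Windows of the Fbxw cluster on chromosome 9, much alike and described with the Fbxw genes, make up 4 of those 17 and 4 of those 7. Without that cluster the medians of the members were 23, 18 and 15, and 3 of the remaining 13 under the blank threshold, or 23.1%, held 5 CpG or fewer. With the most CpG-rich listed window of each gene in place of the first, the medians were 24.5, 18 and 8. The 250 bases before the start are shown, on the gene's strand and with each CG in capitals, for a pair of core subunits that were over the receptor threshold, Skp1 (chr11:52231745-52231994, plus strand) and Rbx1 (chr15:81466066-81466315, plus strand), and for a pair of F-box genes that were not over the blank threshold, Fbxw15 (chr9:109568263-109568512, minus strand) and Fbxw26 (chr9:109746090-109746339, minus strand).
Skp1: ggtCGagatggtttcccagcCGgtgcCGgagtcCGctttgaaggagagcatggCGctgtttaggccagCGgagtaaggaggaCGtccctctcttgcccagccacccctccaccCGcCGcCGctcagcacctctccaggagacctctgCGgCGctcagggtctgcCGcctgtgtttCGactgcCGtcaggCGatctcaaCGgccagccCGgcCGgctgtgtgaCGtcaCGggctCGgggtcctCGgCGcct
Rbx1: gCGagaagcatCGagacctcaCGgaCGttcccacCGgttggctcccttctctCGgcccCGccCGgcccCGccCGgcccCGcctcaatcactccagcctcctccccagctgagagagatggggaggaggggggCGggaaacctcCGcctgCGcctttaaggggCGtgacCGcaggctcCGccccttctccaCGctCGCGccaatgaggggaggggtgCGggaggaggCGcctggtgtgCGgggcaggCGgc
Fbxw15: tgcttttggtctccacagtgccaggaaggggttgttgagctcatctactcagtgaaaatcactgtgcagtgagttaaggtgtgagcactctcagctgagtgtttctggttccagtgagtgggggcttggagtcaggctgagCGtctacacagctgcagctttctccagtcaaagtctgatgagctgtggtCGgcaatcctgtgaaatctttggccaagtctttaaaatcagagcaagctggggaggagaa
Fbxw26: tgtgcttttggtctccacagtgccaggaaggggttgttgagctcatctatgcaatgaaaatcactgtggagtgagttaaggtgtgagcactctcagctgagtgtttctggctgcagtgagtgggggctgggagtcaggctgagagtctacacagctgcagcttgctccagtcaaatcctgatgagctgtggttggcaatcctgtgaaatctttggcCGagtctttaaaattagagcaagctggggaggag
The Skp1 and Rbx1 stretches hold 24 CG each, and those of Fbxw15 and Fbxw26 hold 2 and 1.

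**Figure D2:**
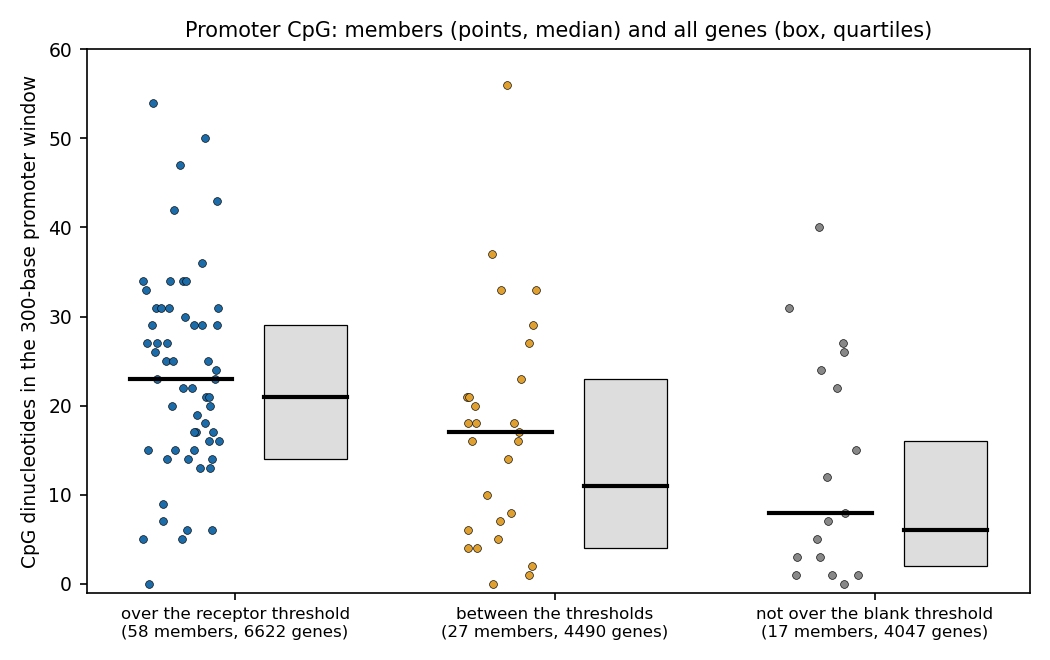
CpG dinucleotides in the 300-base promoter window (vertical) by the side of the thresholds on which the gene's signal fell (horizontal); points are members with their median as a bar, and boxes give the quartiles and median of all named genes. The member medians step from 23 to 17 to 8 beside 21, 11 and 6 for all genes, or to 18 and 15 without the Fbxw cluster of chromosome 9, and single members depart widely, such as Skp2 with 0 CpG over the receptor threshold and Klhl29 with 40 under the blank threshold.

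Among the scaffolds, Cul1, which carries the F-box proteins, read 881 and Cul3, which carries the Kelch proteins, read 739. Both Cul4 scaffolds, partners of the adaptor Ddb1, were over the receptor threshold too, Cul4a at 128 and Cul4b at 267, as was Cul5, the scaffold of the SOCS-box proteins, at 149. Cul9, a large cullin that binds p53, read 59.1, close over the receptor threshold, and lay under it when both were corrected for local background. The members between the thresholds were Cul2 at 41.1, the scaffold used by the von Hippel-Lindau protein, and Cul7 at 34.95, which works with Fbxw8. The Cul2 spot was 1.09 times as bright as its own surroundings, and Cul2 was not over the blank threshold once the local background was subtracted. Rbx1, the RING protein shared by most of these scaffolds, read 268, and its relative Rnf7, the RING partner of Cul5, read 3096.

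The wider machinery around the scaffolds was read as well. A list of 31 measured genes holds mostly those that attach or remove the activating modifier Nedd8, exchange receptors or bridge to them. It also holds further partners, namely Rnf7, Cdc34, Ube2r2, Arih1, Arih2, Glmn and Cacul1. Of the 31, 30 passed the blank threshold and 29, or 93.5%, the receptor threshold, with a median of 433. Among all genes 72.8% and 42.8% did. Nedd8 itself read 2972, the scaffold exchange factor Cand1 read 433, and Cops5, the subunit of the COP9 signalosome that cuts Nedd8 off cullins, read 2282. The bridging proteins Ddb1, Elob and Eloc read 575, 2310 and 181. Cand2, the paralog of Cand1 known from muscle, lay between the thresholds at 54.8, and Dcun1d2, a factor that helps attach Nedd8, was not over the blank threshold at 19.6.

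Skp1, the adaptor that links F-box proteins to Cul1, read 2603. Skp2, the F-box protein that marks the cell cycle inhibitor p27 for destruction, read 739, and its spot was 24.9 times as bright as its surroundings, the highest such ratio of the member probes. Cdkn1b, the gene of p27, read 56.2, close to the receptor threshold.

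The Fbxw proteins carry a WD40 propeller that binds phosphorylated substrates. Of the 15 measured Fbxw genes 9 passed the blank threshold, or 60%, and 7 the receptor threshold, or 46.7%. The shares of all genes were 72.8% and 42.8%. The Fbxw genes are described in 2 groups by their place in the genome. In the RefSeq gene order 15 Fbxw genes follow each other on chromosome 9, from Fbxw21 to Fbxw27, with 0 other protein-coding genes between them; this rodent cluster is known from oocytes. Of its 7 genes measured here, 2 passed the blank threshold and 0 the receptor threshold: Fbxw21 read 31.5 and Fbxw16 read 23.2, while Fbxw13, Fbxw14, Fbxw15, Fbxw19 and Fbxw26 read from 19.4 to 22.9. Of the 8 Fbxw genes elsewhere 7 passed both thresholds, while Fbxw4 read 19.3, as low as genes of the cluster. Fbxw17, among those 7, passed neither threshold once the local background was subtracted, so the values do not split cleanly by position. The grouping by genome position was made after the values were seen.

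Promoters of the cluster genes are much alike, as the printed stretches of Fbxw15 and Fbxw26 show. Over the 300-base windows of the 6 cluster members with a listed promoter, the 15 pairs were from 88.8% to 97.4% identical over their aligned bases, where the unrelated windows of Skp1 and Rbx1 were 75.2% identical over 242 bases aligned with gaps. These windows held from 0 to 3 CpG. Whether the probes tell transcripts of these genes apart was not tested, and the signal of a single gene of the cluster is uncertain.

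Of the other Fbxw genes, Fbxw7, the receptor that removes cyclin E, Myc and Mcl1, read 304 on 1 probe and 59.9 on the other, both over the receptor threshold. Its substrates Ccne1 and Mcl1 read 424 and 2268, and Myc lay between the thresholds at 40.6. Fbxw11, also known as beta-TrCP2, which recognises the NF-kB inhibitor and beta-catenin, read 257, whereas its paralog Btrc, which is no member by symbol, lay between the thresholds at 43.7. The genes of these substrates, Nfkbia and Ctnnb1, read 2235 and 1168. Fbxw8, the partner of Cul7, read 173, Fbxw5 read 86.8 and Fbxw9 read 77.2. Fbxw2 read 238 on 1 probe and 36.0 on the other. Fbxw4 was not over the blank threshold at 19.3. Fbxw17 read 67.9, but its spot was 1.002 times as bright as its surroundings, the lowest ratio among member probes over the receptor threshold, and it passed neither threshold when the local background was subtracted.

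Of the 15 Fbxl proteins, which bind substrates with leucine-rich repeats, 10 passed the blank threshold, or 66.7%, and 5 the receptor threshold, or 33.3%. The shares of all genes were 72.8% and 42.8%, and with 15 genes the lower shares of Fbxl are not a result about the family. With the blank threshold at 1 SD over the mean, 12 of the 15 passed, beside 77.2% of all genes. With local background subtracted, 7 passed the receptor threshold treated alike. Fbxl5, the iron sensor that removes the iron regulatory protein of Ireb2, read 192 on 1 probe and 19.3 on the other, on either side of both thresholds, and Ireb2 read 121. Fbxl4, a protein of the mitochondrial outer membrane that restrains mitophagy, read 109. Fbxl17, which removes wrongly paired BTB proteins, read 112. Fbxl6 read 193 and Fbxl15, which controls the ligase Smurf1, read 70.2. Fbxl14, which targets Snai1, lay just under the receptor threshold at 53.3, as did Fbxl20 at 52.5 on its higher probe and 28.0 on its lower. Fbxl8, Fbxl19 and Fbxl22 lay between the thresholds at 40.0, 39.0 and 28.8.

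The Fbxl genes that did not pass were Fbxl2 at 22.6, Fbxl7 at 21.3, Fbxl13 at 19.2, Fbxl16 at 18.2 and Fbxl21 at 21.9. Fbxl16 and Fbxl21 are known mainly from brain, where Fbxl21 acts on cryptochromes. The cryptochrome genes Cry1 and Cry2 read 115 and 292.

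The Fbxo proteins, which carry varied substrate domains, passed in 31 of 34 cases, or 91.2%, at the blank threshold and in 21, or 61.8%, at the receptor threshold. For all genes these shares were 72.8% and 42.8%. Fbxo5, or Emi1, which restrains the anaphase-promoting complex until mitosis, read 940, while its meiotic paralog Fbxo43, or Emi2, lay between the thresholds at 32.7. Fbxo2, Fbxo6, Fbxo17, Fbxo27 and Fbxo44 share a sugar-binding domain that recognises glycoproteins. In that subgroup Fbxo6, the widely expressed form, read 449 and the neuronal form Fbxo2 read 79.1. Fbxo44 and Fbxo17 lay between the thresholds at 49.2 and 23.5, and Fbxo27 was not over the blank threshold at 20.9.

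Among further Fbxo genes over the receptor threshold, Fbxo7, known from parkinsonism and from proteasome binding, read 116 on 1 probe and 24.2 on the other. Fbxo11, which removes the repressor Bcl6, read 216, and Bcl6 read 89.7. Fbxo4 and Fbxo31, both reported to target cyclin D1, read 193 and 132, the latter with a second probe between the thresholds at 29.1. Fbxo8, which has a Sec7 domain, read 445 and 28.6. Fbxo3 read 299 and 246 on probes for different RefSeq transcripts, and Fbxo45, a neuronal partner of Mycbp2, read 213 and 93.1. Fbxo16 read 366, Fbxo22 295, Fbxo33 199, Fbxo38 181, Fbxo9 168 and Fbxo34 162. Fbxo25, Fbxo28, Fbxo30, Fbxo21 and Fbxo41 read from 61.6 to 144. These genes were over the receptor threshold on their highest probe, and the lower probes of Fbxo7, Fbxo8 and Fbxo31 were not.

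The Fbxo genes of muscle gave little signal: Fbxo32, or atrogin-1, of muscle wasting, read 23.6 and Fbxo40 read 18.8. The stem cell gene Fbxo15 lay between the thresholds at 32.6 and the testis gene Fbxo24 was not over the blank threshold at 21.6. The remaining members between the thresholds, Fbxo10, Fbxo36, Fbxo42, Fbxo46 and Fbxo48, read from 29.9 to 47.9.

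Keap1, the Cul3 receptor that holds NRF2 down until oxidants modify its cysteines, read 164 on its 1 probe. Its substrate gene Nfe2l2 read 706. Of 18 measured genes known as NRF2 targets, 18 passed the blank threshold and 17, or 94.4%, the receptor threshold, with a median of 1173. Among all genes 72.8% and 42.8% did. Slc7a11, among the 17, read 58.1 on its higher probe and 24.7 on its lower. Hmox1 read 1001, Gclm 940 and Sqstm1, which itself binds Keap1, 1346. Nqo1 was the target between the thresholds, at 26.8. Several of these genes had been read in these data before the list was drawn up, so the count is a description of this array.

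The other Kelch receptors of Cul3 gave signal less evenly. Of 35 Klhl genes 29 passed the blank threshold, or 82.9%, and 14 the receptor threshold, or 40.0%, a share near the 42.8% of all genes. Klhl6, known from the lymphoid lineage, read 214. Klhl2 and Klhl3 both target WNK kinases; Klhl2 read 263, whereas Klhl3, the kidney form, was not over the blank threshold at 19.7, and Wnk1 read 23.8. Klhl12, which controls the coat of large transport vesicles, read 114 and 44.0 on its 2 probes. Klhl20 and Klhl22, the latter a regulator of mTORC1 signalling, read 84.9 and 111. Klhl5 read 382 and 122, Klhl7 164 and 154, and Klhl25 72.9 and 64.0, so that in each of these genes both probes passed the receptor threshold. Klhl15, which controls a phosphatase subunit, read 83.7 on 1 probe and 24.7 on the other.

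Klhl9, Klhl13 and Klhl21 serve Cul3 at mitosis, where they act on Aurora B. Klhl9 read 69.5 and 20.9 on its 2 probes, Klhl13 read 22.6 and Klhl21 read 20.3, so 1 of their 4 probes lay over either threshold. Aurkb, the gene of that kinase, read 1539. Klhl13 was over the threshold set from the blanks of its own block, at 1.02 times.

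Klhl24 and Klhl26 lay over the receptor threshold at 57.1 and 67.3. Of the Klhl genes known mainly from muscle, Klhl31 was not over the blank threshold on either probe, at 20.5 and 19.8, Klhl38 lay just under the receptor threshold at 55.0, and Klhl30 and Klhl41 lay over it at 83.5 and 121. The Klhl41 spot was 1.48 times as bright as its surroundings. The neuronal gene Klhl1 and the sperm gene Klhl10 lay between the thresholds at 39.0 and 30.9. The rest between the thresholds, Klhl8, Klhl11, Klhl14, Klhl17, Klhl18, Klhl23, Klhl28, Klhl32, Klhl34, Klhl35, Klhl36 and Klhl42, read from 23.1 to 52.6, and Klhl4 and Klhl29 did not pass, at 19.4 and 21.4.

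The Socs proteins bind cytokine receptors or their JAK kinases and recruit Cul5. Of 7 genes, 6 passed the blank threshold, or 85.7%, and 3 the receptor threshold, or 42.9%, the latter near the 42.8% of all genes. Socs3, which restrains signalling by interleukin-6 and related cytokines, read 376, and Socs6, which acts on receptor tyrosine kinases, read 240; their spots were 11.4 times as bright as their surroundings. Socs4 read 89.2, but at 1.19 times its surroundings it fell under the receptor threshold when both were corrected for local background. Socs1, the strong inhibitor of interferon signalling, lay between the thresholds at 33.5, as did Socs5 at 28.6 and Socs7 at 25.4, and Socs2, the brake on growth hormone, was not over the blank threshold at 21.4. Cish, the close relative of Socs2 that is no member by symbol, lay between the thresholds at 31.2.

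Genes of the cytokine signalling that Socs proteins restrain were read beside them. Of 29 measured kinases, STAT factors, cytokine receptors and further inhibitors, 29 passed the blank threshold and 23, or 79.3%, the receptor threshold. Among all genes 72.8% and 42.8% did. Jak1 and Jak2 read 469 and 171, Stat3 read 150 and the interleukin-6 signal chain Il6st read 128, whereas its ligand-binding chain Il6ra lay between the thresholds at 31.2. Socs3 is a textbook STAT target, and its promoter stretch (chr11:117969367-117969616, GRCm38.p6, minus strand) is shown with the pattern TTCNNNGAA in capitals.
Socs3: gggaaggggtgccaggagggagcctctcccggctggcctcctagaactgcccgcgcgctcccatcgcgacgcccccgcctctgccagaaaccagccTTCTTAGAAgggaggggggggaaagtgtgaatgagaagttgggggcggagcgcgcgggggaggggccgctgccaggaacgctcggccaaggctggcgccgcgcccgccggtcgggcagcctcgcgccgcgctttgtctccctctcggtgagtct
The match starts at position -154 from the gene's start and reads TTCTTAGAA.

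Searched on both strands, TTCNNNGAA was in 16 of the 137 listed windows of members, or 11.7%, and in 8.30% of all 32851 windows. Of the Socs genes, Socs1, Socs3 and Socs4 had a listed window, and Socs3 held a match. Further patterns searched were the E2F sites TTTCCCGC (2.19% of member windows, 1.07% of all) and TTTGGCGC (0 of the member windows, 0.514% of all), the antioxidant response element TGACNNNGC (11.7% and 12.4%), the cell cycle element TTTGAA (14.6% and 17.9%) and the ETS site CCGGAAG (24.1% and 8.86%). In the first listed windows of genes over the receptor threshold the picture changed. There TTCNNNGAA was in 5.17% of members and 6.99% of all named genes, TTTGAA in 13.8% and 12.7%, so that the order of both turned. The ETS site was in 25.9% and 20.9%, the antioxidant response element in 12.1% and 14.9%, and the first E2F site in 3.45% and 2.33%. The differences were not tested. Rbx1, Klhl15 and Anapc15 held the first E2F site. The patterns can share bases, as TTCNNNGAA can with TTTGAA. A match is a run of letters, not a shown binding site.

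The Anapc genes of the anaphase-promoting complex passed the blank threshold in 10 of 10 cases and the receptor threshold in 9. Of all genes 72.8% and 42.8% did. The catalytic pair of the complex, the cullin-like Anapc2 and the RING protein Anapc11, read 275 and 274. Anapc10, which helps the activators Cdc20 and Cdh1 hold the substrate, read 576. The platform subunits Anapc1, Anapc4 and Anapc5 read 228, 954 and 1620, and the scaffold subunit Anapc7 read 263. The spots of Anapc4 and Anapc5 were 1.17 and 1.29 times as bright as their surroundings, and both genes stayed over both thresholds with the local background subtracted. The small subunits Anapc13 and Anapc16 read 754 and 367. Anapc15, which turns over the mitotic checkpoint complex, was the member between the thresholds, at 31.5, and it was not over the blank threshold once the local background was subtracted.

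Partners of the complex were read without exception: 16 of 16 subunits with other names, activators, conjugating enzymes and checkpoint proteins passed both thresholds, with a median of 508. The subunits Cdc16, Cdc23, Cdc26 and Cdc27 read 385, 205, 920 and 334. The activator Cdc20 read 2187, the activator Fzr1 (Cdh1) 219, and the conjugating enzyme Ube2c of the complex 2393. The conjugating enzyme Ube2s read 3469 on its higher probe and 72.8 on its lower, so the level of its signal is uncertain. A list of 34 measured genes holds substrates of cullin-RING ligases or of the anaphase-promoting complex, not all of them known for a member. Rhobtb3 on it was also counted among substrate receptors outside the rule. Of the 34, 34 passed the blank threshold and 29, or 85.3%, the receptor threshold. Of all genes 72.8% and 42.8% did. Those of the list between the thresholds were Myc, Snai1, Notch1, Wnk1 and Wnk4.

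A list of members known mainly from other tissues was drawn up with earlier readings of this array known. It rests on general knowledge, mostly of muscle, brain, germ cells and early embryo. Its counts describe the list and support nothing further, and it is not complete, since the neuronal Fbxo45 is not on it. Socs2, the brake on growth hormone, is on the list too, among its genes not over the blank threshold. Of the list's 34 measured genes 20, or 58.8%, passed the blank threshold and 6, or 17.6%, the receptor threshold, with a median of 24.2. Among all genes 72.8% and 42.8% did, with a median of 40.1. Of the 94 remaining members 87, or 92.6%, passed the blank threshold and 63, or 67.0%, the receptor threshold, with a median of 113. The listed genes over the receptor threshold were Fbxo2, Fbxo16, Fbxo41, Fbxw17, Klhl30 and Klhl41. Of the 21 members not over the blank threshold 14 were on the list, and the 7 others were Fbxl2, Fbxo27, Fbxw4, Klhl3, Klhl13, Klhl21 and Klhl29.

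**Figure D3:**
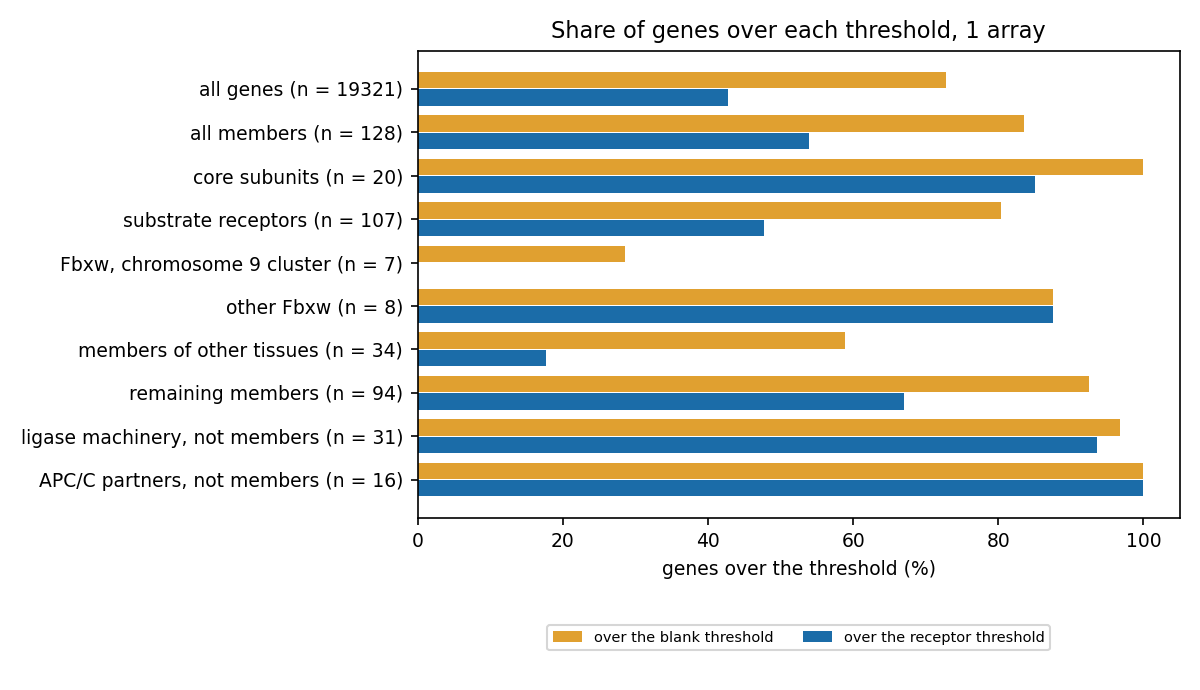
Share of genes over the blank threshold and over the receptor threshold (horizontal, percent) for all genes, for members and for groups around them (vertical, with the number of genes). Core subunits reach 100% and 85.0% and substrate receptors 80.4% and 47.7%, while the Fbxw cluster of chromosome 9 has 28.6% over the blank threshold and 0 genes over the receptor threshold.

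The 17 members with 2 probes give the repeated readings that this array holds. The higher probe exceeded the lower by a median of 3.13 times, in a range from 1.04 times in Klhl31 to 15.5 times in Fbxo8. In 8 genes, or 47.1%, the probes lay on different sides of a threshold, and over all 1283 genes with several probes this was so in 54.6%, where the median ratio was 1.89. In Fbxl5 and Klhl9 1 probe was over the receptor threshold and the other not over the blank threshold. Where both probes carry the same RefSeq accession, in 11 genes, the median ratio was 2.29. In Fbxl5, Fbxo8 and Fbxw2 the lower probe has no accession in the platform annotation, and the ratios were 9.97, 15.5 and 6.60.

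**Figure D4:**
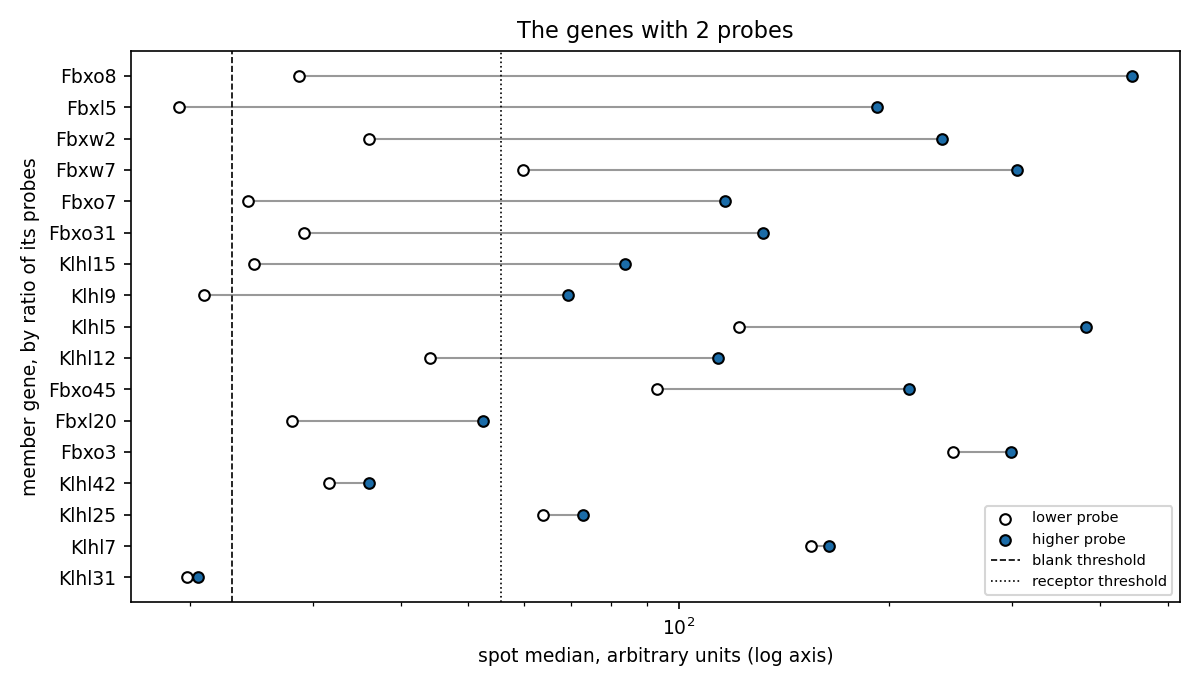
Signal of both probes (horizontal, arbitrary units, log axis) for the 17 members read by 2 probes (vertical, ordered by the ratio of the probes); dashed and dotted lines are the blank and receptor thresholds. In 8 genes the probes lie on different sides of a threshold, and in Klhl7, Klhl25, Klhl31 and Klhl42 they lie within 1.14 times of each other.

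The spots were also read against their surroundings. Of the 75 member probes over the receptor threshold, 3 were less than 1.2 times as bright as their surroundings, namely those of Fbxw17, Anapc4 and Socs4, or 4.0%, against 2.70% of all named probes over that threshold. Another 5, of Anapc5, Fbxo38, Fbxo45, Klhl41 and Anapc16, were under 1.5 times. Whether light from neighbouring spots raised these readings was not tested.

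**Figure D5:**
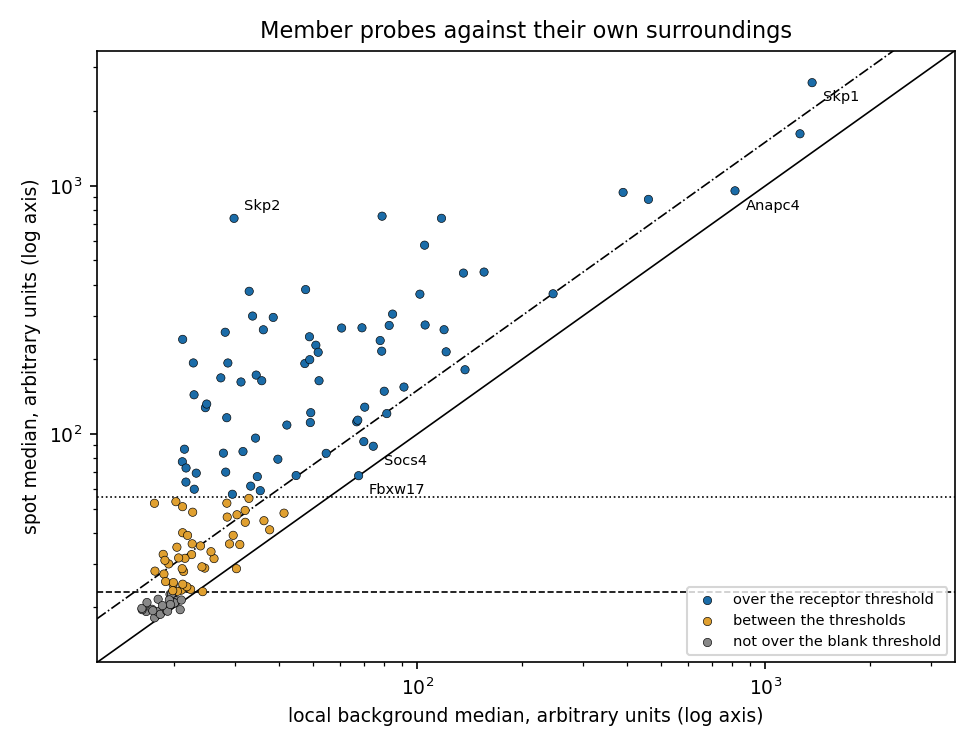
Spot median against local background median of the 145 member probes (both in arbitrary units, log axes); the solid line marks equal brightness, the dash-dotted line 1.5 times, and the horizontal lines the blank and receptor thresholds. Fbxw17 lies on the line of equality at 67.9 and Anapc4 close to it at 954, whereas Skp2 stands 24.9 times over its surroundings.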

How the data were processed

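Per the labels' protocols, total RNA of parental cells was column-purified, amplified to amino allyl RNA and coupled to Cy5. The deposited scanner file holds, per the file headers, the intensity of 27456 spots as spot and local background medians at 635 nm from a scan at 3 gains, with nothing subtracted; its header gives fits between gains, and the program that joined them is not named there. The authors' deposited table of processed intensity, of unstated scale, followed the spot median minus the blank mean times about 0.486 (found from 2987 probes over 200), with a column median of 25. It held values for 121 of the 145 member probes, the same 121 that were over the blank threshold here.

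Blanks (2464 used, 5% trimmed at each end) averaged 20.6 with an SD of 1.18. Probes were named from the platform annotation: 20690 had 1 symbol, 0 several and 2783 none, and 20556 matched the RefSeq gene table of GRCm38.p6, used for names and gene order. Members, lists and thresholds were chosen with earlier results of these data known. Members were named if in a small family, if their role could be stated, if probes disagreed or if not over the blank threshold; the rest appear by range. Normexp used limma 3.58.1 with an offset of 50, and promoters were read in Python 3.11.15. The other alternatives were further thresholds, local background subtraction, other ways to join probes, and updated symbols. With 1 array, the number of arrays limits the precision.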

Additional observations from a re-analysis of the deposited data

How the results depend on the processing

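The receptor threshold, a higher bar by construction, lowered the members called from 107 to 69, Fbxl from 10 to 5, Klhl from 29 to 14, Socs from 6 to 3, substrate receptors from 86 to 51, members known from other tissues from 20 to 6 and the Fbxw cluster from 2 to 0. That cluster stood at 1 with 3 SD, no trimming, the 99th percentile of blanks, normexp or local background subtraction. Counts of the other groups stayed within 1.5 times in the settings run. Medians over members that passed the blank threshold were 86.8 for Fbxw, 61.7 for Fbxl, 128 for Fbxo, 55.0 for Klhl and 61.4 for Socs. Over the 12 settings other than the receptor threshold, 93 members passed in each, 17 in none, and 18 changed side. These are not 12 independent checks. Updated symbols could change no member's call, and the authors' table holds values for the same member probes that pass here. Normexp starts from the spot less its local background, so it nearly repeats local background subtraction. Normexp and local background subtraction each lost the same 12 members at the blank threshold, among them Cul2, Anapc15 and Fbxw17, and the share of all genes called was then 63.2%; at a receptor threshold treated alike Cul9, Fbxo21, Fbxw17 and Socs4 were lost and Fbxl14, Fbxl20 and Klhl23 gained. With the lowest probe of each gene 8 members fell under the receptor threshold. Signal over background limits the calls near the blanks: Klhl13, Fbxl2, Fbxw14, Klhl32, Fbxw16, Klhl28, Fbxo17 and Fbxo32 lay within 3% of the blank threshold. The run without badly flagged spots was not made, since 0 spots had such a flag. Chosen after seeing the data, the setting without the Fbxw cluster of chromosome 9 moved the median CpG of members not over the blank threshold from 8 to 15.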

Other observations

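Substrate receptors whose symbols lie outside the rule were read on the same array, as a list of 67 measured genes. Of these 60, or 89.6%, passed the blank threshold and 41, or 61.2%, the receptor threshold, with a median of 82.2. Among all genes 72.8% and 42.8% did. The 11 Dcaf genes, receptors of the Cul4 ligases, passed the blank threshold in 11 cases and the receptor threshold in 9, with Dcaf13, which also serves in ribosome assembly, at 1300. The 18 Asb genes, SOCS-box proteins with ankyrin repeats that use Cul5, passed in 13 and 6 cases, with Asb8 at 146 and Asb4, Asb12, Asb15, Asb17 and Asb18 not over the blank threshold at 19.04 to 22.8. Of 8 Kbtbd genes, BTB-Kelch proteins like the Klhl group, 8 passed the blank threshold and 5 the receptor threshold. Kbtbd11 read 1102 on its higher probe and 114 on its lower, Kbtbd12 read 519 and Kbtbd2 read 288.

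Single receptors of this list gave clear signal. Spop, a Cul3 receptor with a MATH domain, read 709, the SOCS-box protein gene Wsb1 read 930, Appbp2 and Klhdc2, receptors that read protein ends with Cul2, read 536 and 480, and Crbn, the target of thalidomide, read 179. Vhl read 82.2. Not over the blank threshold were, besides the Asb genes, Rhobtb1 at 21.5 and Zer1 at 21.2.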
